A study of Homo sapiens with 12 samples.

Results

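The nuclear-encoded subunits of the respiratory chain were examined in 3 human hepatocellular carcinoma lines, with and without lactate. Oxidative phosphorylation uses 5 protein complexes in the inner mitochondrial membrane. Complexes I (NADH dehydrogenase), II (succinate dehydrogenase), III (the cytochrome bc1 complex) and IV (cytochrome c oxidase) pass electrons to oxygen, and complex V (ATP synthase) uses the proton gradient that complexes I, III and IV build. Most subunits are encoded in the nucleus and some in the mitochondrial genome, and several nuclear subunits exist as isoforms whose use differs between tissues such as liver, heart, skeletal muscle and testis. Lactate reaches the chain through pyruvate and the citric acid cycle.

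Members were chosen by symbol: the NDUFA, NDUFB, NDUFC, NDUFS and NDUFV genes with a number, SDHA to SDHD, the UQCR genes, COX4 to COX8, and the ATP5F1, ATP5M and ATP5P genes. The pattern matched 255 symbols. Dropping 168 pseudogene, antisense and read-through symbols left 87 of the 62710 genes in the tables. Of these, 36 belonged to complex I, 4 to complex II, 9 to complex III, 20 to complex IV and 18 to complex V. NDUFA4 and its paralogue NDUFA4L2 were counted with complex IV, where the NDUFA4 protein is now placed. The rule itself uses no measured value, but it was chosen with earlier results of these data known. It leaves out subunits with other names, such as CYC1 and NDUFAB1.

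The study sequenced total RNA of the established lines HLF, SNU475 and PLC/PRF/5, each as an untreated control and after 20 mM lactate, given as lactic acid, for 24 h. Each of the 6 groups held 2 libraries, 12 in all, and the labels do not say whether the 2 came from separate cultures. A p-value below therefore rests only on how far the 2 libraries of a group differ, pooled over the 6 groups, possibly for technical reasons. Totals were 16533437 to 22187849 expected counts per library, the estimated read counts deposited by the authors. Replicates differed beyond counting noise in every group, and not equally. The chi-square per degree of freedom ran from 11.4 in PLC/PRF/5 controls to 106 in the SNU475 lactate group. Mitochondrially encoded genes took 3.39 to 15.05% of the counts, with the widest gaps between the HLF controls (9.52% and 3.39%) and between the SNU475 controls (8.0% and 15.05%). The 14 hepatocyte markers together reached 4780 to 9060 CPM (counts divided by library sizes that edgeR scaled) in PLC/PRF/5 but 5.98 to 14.2 CPM in HLF and SNU475, where APOA1, APOB and TTR had no count. The 5 leukocyte markers summed to 53.5 to 204 CPM, with 1 or 2 of them above 1 CPM in each line and CD3E at 0 counts in all libraries. The 4 muscle markers summed to at most 2.51 CPM.

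Levels were compared between genes in TPM, a transcript abundance that corrects for length. The chain was expressed throughout: 79 of 87 members had a mean of at least 10 TPM over the 12 libraries and 63 had at least 100 TPM. In complex I the mean ran from 18.5 TPM for NDUFV3, an accessory subunit of the NADH-oxidising arm, to 510 TPM for NDUFS5, an accessory subunit on the intermembrane-space side. Complex II was the most even, from 112 TPM for SDHA, its flavoprotein, to 152 TPM for SDHC, a membrane anchor. Complex III reached 604 TPM for UQCRH, the hinge protein. Complex IV ran from 19.8 TPM for COX7B2 to 955 TPM for COX8A among members at 1 TPM or more. Complex V ran from 47.4 TPM for ATP5F1E, the epsilon subunit of the catalytic head, to 958 TPM for ATP5ME, a small membrane subunit.

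**Figure D1:**
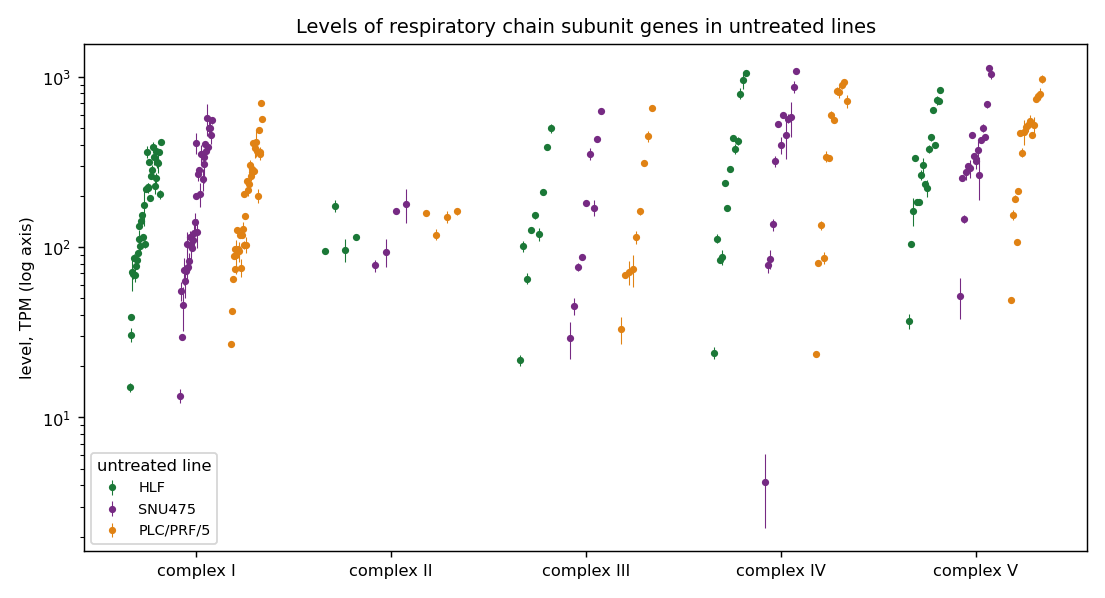
Level of the 79 members with a mean of at least 1 TPM in the untreated lines, by complex, on a log axis in TPM. Points are means of 2 libraries and bars span the 2 libraries; within a line the genes are in order of mean level. Complex II genes lie close together, and the lone low point in complex IV is COX7B2 in SNU475.

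Summed over all members, untreated HLF held 20290 ± 212 TPM (SD, n = 2), SNU475 23720 ± 2000 TPM and PLC/PRF/5 24860 ± 1910 TPM. By this sum the HLF libraries were the lowest, and the SNU475 and PLC/PRF/5 ranges overlapped. As a share of counts without mitochondrially encoded genes, members took 0.959 and 0.813% in HLF controls, 1.093 and 1.081% in SNU475 and 0.914 and 1.014% in PLC/PRF/5. By this share SNU475 was highest without overlap, and HLF and PLC/PRF/5 overlapped. After lactate the sums were 20510 ± 726 TPM in HLF, 23180 ± 671 TPM in SNU475 and 27160 ± 382 TPM in PLC/PRF/5. The 2 lactate libraries of PLC/PRF/5 (26890 and 27430 TPM) lay above its controls (23510 and 26210 TPM), whereas the TPM sums overlapped in HLF and in SNU475. By the share, the SNU475 lactate libraries (1.0 and 1.066%) lay below the controls. Those of PLC/PRF/5 (1.037 and 1.058%) lay above, and those of HLF (0.81 and 0.852%) overlapped. The 13 mitochondrially encoded subunit genes summed to 128850 and 229762 TPM in the SNU475 controls, and their part in the TPM sums was not tested.

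Promoters of 68 members were found in RefSeq (GRCh38.p14), and the 250 bases before the start were searched on both strands for the NRF1 motif (GCGCA, any base, then GCGC) and the ETS motif CCGGAAG. NRF1 and the ETS factor GABP are known regulators of respiratory chain genes. The NRF1 motif was found in 15 members (22.1%) and in 5.53% of 27305 promoters of all genes. The ETS motif was found in 17 members (25%) against 8.82%, and either motif in 44.1% against 13.4%. A match describes these letters only and was not tested for binding. Of the members searched, UQCR11 was 1 of the 2 with both motifs. COX8A, the widely expressed isoform, held an ETS match, and COX8C, a testis isoform with no count here, held an NRF1 match. COX7B and COX7B2, whose levels are compared below, held neither. In GENCODE 29 the windows of UQCR11, COX8A and COX7B held 28, 13 and 30 bases of annotated exons, and those of COX8C and COX7B2 held 0. These windows are thus not wholly upstream of annotated transcripts. Both NRF1 matches of UQCR11 lay at the exon end of its window. The sequences of these genes are given 5′ to 3′ with the motifs in capitals.
UQCR11 (chr19:1605463-1605712, minus strand): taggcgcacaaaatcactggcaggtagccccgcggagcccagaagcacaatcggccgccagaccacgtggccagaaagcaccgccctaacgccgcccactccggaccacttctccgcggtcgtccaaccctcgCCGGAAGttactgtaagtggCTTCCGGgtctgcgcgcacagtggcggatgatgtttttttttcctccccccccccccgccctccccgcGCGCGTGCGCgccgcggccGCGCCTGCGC
COX8A (chr11:63974370-63974619, plus strand): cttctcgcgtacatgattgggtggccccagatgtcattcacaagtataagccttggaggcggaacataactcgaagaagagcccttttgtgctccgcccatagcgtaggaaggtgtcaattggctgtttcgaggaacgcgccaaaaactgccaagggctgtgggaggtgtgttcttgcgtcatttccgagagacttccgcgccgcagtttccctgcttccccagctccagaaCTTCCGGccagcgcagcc
COX8C (chr14:93346932-93347181, plus strand): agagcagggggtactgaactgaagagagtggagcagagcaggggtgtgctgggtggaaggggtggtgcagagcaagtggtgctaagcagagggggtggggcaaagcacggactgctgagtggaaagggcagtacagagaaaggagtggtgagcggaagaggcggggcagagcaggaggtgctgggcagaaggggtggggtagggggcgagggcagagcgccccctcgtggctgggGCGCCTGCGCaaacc
COX7B (chrX:77899218-77899467, plus strand): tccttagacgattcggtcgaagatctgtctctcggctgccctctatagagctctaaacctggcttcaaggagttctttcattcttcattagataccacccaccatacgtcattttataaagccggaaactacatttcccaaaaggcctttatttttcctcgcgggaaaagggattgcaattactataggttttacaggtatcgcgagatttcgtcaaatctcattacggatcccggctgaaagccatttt
COX7B2 (chr4:46909246-46909495, minus strand): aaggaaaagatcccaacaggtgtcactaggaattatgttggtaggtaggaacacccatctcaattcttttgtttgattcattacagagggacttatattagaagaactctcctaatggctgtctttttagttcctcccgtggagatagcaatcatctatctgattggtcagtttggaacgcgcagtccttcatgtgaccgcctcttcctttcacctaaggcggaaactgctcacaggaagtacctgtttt

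In the COX4I and COX6A pairs the widely expressed form carried nearly all of the signal. COX4I2, the lung form induced by low oxygen, had no count in any of the 12 libraries, while COX4I1 stood at 442 to 954 TPM. COX7A1, a heart and muscle form, COX8C and the pseudogene-like COX8BP also had no count. COX6A2, the muscle form, had 3 counts over all libraries against 801 to 1070 TPM for COX6A1. ATP5MGL, a copy of the complex V subunit ATP5MG, had 2 counts. These 6 genes did not pass the filter on low counts, so 81 of 87 members were tested among 18355 genes. UQCRHL, a near-identical copy of UQCRH, took 2.69 to 5.65% of the TPM of the pair, and this split is uncertain because the 2 genes share reads.

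COX7B2, a paralogue of the complex IV subunit COX7B known from testis, was detected in all lines but differed between them. In HLF controls it had 151 and 92 counts, in PLC/PRF/5 controls 89 and 90, and in SNU475 controls 29 and 13. Its share of the TPM of COX7B and COX7B2 was 21.3 and 21.9% in HLF, 23.7 and 19.4% in PLC/PRF/5, and 3.98 and 1.76% in SNU475. Lactate libraries gave shares of 21.9 and 27.0% in HLF, 21.4 and 21.9% in PLC/PRF/5, and 4.64 and 0.956% in SNU475. The SNU475 libraries were therefore the lowest under both conditions and overlapped with no other line. On the log2 scale the untreated level was 2.37 ± 0.57 (SE) higher in HLF than in SNU475 (edgeR, adjusted p = 0.00677) and 1.99 ± 0.57 higher in PLC/PRF/5 than in SNU475 (adjusted p = 0.0132). Both calls were lost without SNU475 control library 2, at log2 differences of 1.90 and 1.54, and each also without the first control library of the line it was compared with (1.99 for HLF, 1.91 for PLC/PRF/5).

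The 3 genes for subunit c of ATP synthase, which forms the rotor ring, encode the same mature protein. HLF controls drew 57.4 and 52.8% of the subunit c TPM from ATP5MC2, and 17.9 and 20.0% from ATP5MC3. PLC/PRF/5 controls drew 34.3 and 34.3% from ATP5MC2 and 35.8 and 33.1% from ATP5MC3. SNU475 controls lay between them for ATP5MC2, at 40.6 and 42.1%. ATP5MC3 was 0.91 ± 0.18 higher in PLC/PRF/5 than in HLF on the log2 scale (adjusted p = 0.00205) and 1.01 ± 0.18 lower in HLF than in SNU475 on that scale (log2 difference -1.01, adjusted p = 0.00128). Both calls held in all alternatives run. For ATP5MC1 the log2 difference between PLC/PRF/5 and HLF was 0.49 ± 0.22 (adjusted p = 0.101).

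In the COX7A family, COX7A2L, which helps join complexes into supercomplexes, made up 20.7 and 25.4% of the family's TPM in HLF controls, 13.1 and 17.6% in SNU475 controls and 9.35 and 8.37% in PLC/PRF/5 controls. COX7A2, the liver form, was 0.80 ± 0.22 higher on the log2 scale in PLC/PRF/5 than in HLF (adjusted p = 0.0121), a call lost without HLF control library 2 or PLC/PRF/5 control library 2. COX7A2L differed by -0.74 ± 0.17 in the same comparison (adjusted p = 0.0046), and this call was lost on log2(TPM + 1). NDUFA4L2, a gene induced by low oxygen, stood at most at 1.68 TPM against at least 74.5 TPM for NDUFA4. It had 1 and 0 counts in HLF controls and 14 and 3 in PLC/PRF/5 controls, a ratio of 17.6 (95% exact binomial interval 2.76 to 736, counting error only).

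**Figure D2:**
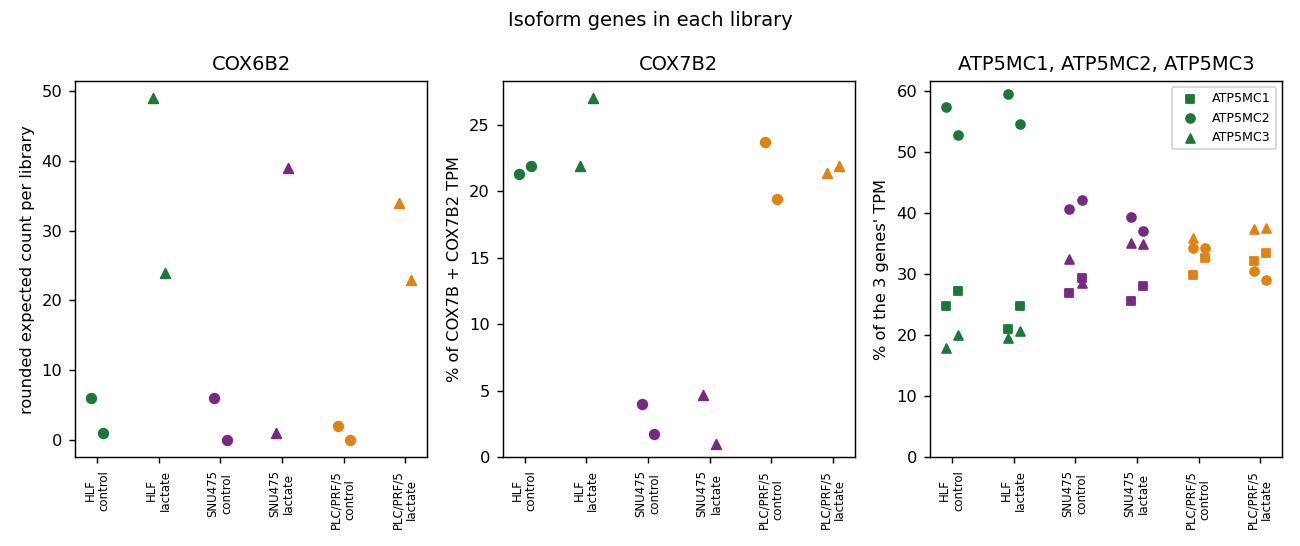
Isoform genes in each library, 2 points per group, control and lactate side by side for each line. The left panel gives counts of COX6B2, the middle panel the COX7B2 share of the COX7B and COX7B2 TPM (circles control, triangles lactate), and the right panel the shares of the subunit c genes (marker shape gives the gene). COX7B2 is at 0.956 to 4.64% in all SNU475 libraries and at 19.4 to 27.0% in the others.

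Lactate was compared with control within each line. None of the 81 members passed an adjusted p of 0.05 in any line, where edgeR called 0% of the 18355 genes (limma-voom also called 0 members and 0 genes in each line, and DESeq2 0 members while it called 42 genes for HLF, 274 for SNU475 and 91 for PLC/PRF/5). At an unadjusted p under 0.05 there were 2 members in HLF (2.47%, against 6.28% of all genes), 0 in SNU475 (against 11.6%) and 2 in PLC/PRF/5 (2.47%, against 5.92%). For the mean effect over the 3 lines, edgeR called 0 members against 0.42% of all genes. Unadjusted p fell under 0.05 for 3 members (3.7%, against 15.8%). DESeq2 called 1 member in the mean effect, COX6B2 (1 of 81, against 5.16% of all genes), and limma-voom 0 (against 0.0872%). The interaction of lactate with line called 0 members and 0% of all genes. Its smallest unadjusted p among members was 0.145, for UQCR11, against 3.51% of all genes under 0.05. The next were NDUFA9 (0.194) and SDHA (0.216).

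The signs of the small differences are given by line, although the interaction of lactate with line called 0 members. Members share libraries, so their signs are not independent. In HLF 72 of 81 members had a negative log2 fold change, against 47.1% of all genes, with a median of -0.142 (all genes 0.0). All 17 tested complex V members and 33 of 36 complex I members were negative. However, the median became 0.023 without HLF control library 1, the library with 9.52% mitochondrially encoded counts, and -0.311 without control library 2. It was 0.054 on log2(TPM + 1), where the median of all genes was 0.101. Both lactate libraries lay below both controls for 18 members (22.2%, against 19.9% of all genes) and above both for 3 (3.7%, against 19.6%). The part of the mitochondrial share in this median was not tested.

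In PLC/PRF/5 61 of 81 members were positive and 20 negative (24.7%, against 43.8% of all genes), with a median of 0.104 (all genes 0.027). Positive were 14 of 15 in complex IV and 14 of 17 in complex V. Both lactate libraries lay above both controls for 31 members (38.3%, against 28.5% of all genes) and below both for 6 (7.41%, against 21.8%). Without PLC/PRF/5 control library 1 the median was 0.029. In SNU475 the median was -0.028 (all genes 0.013), with 31 members positive and 50 negative (61.7%, against 46.7% of all genes), and 6 members had both lactate libraries higher (7.41%, against 16.2%) and 4 lower (4.94%, against 15.4%). Without SNU475 lactate library 2 this median was -0.165, and without lactate library 1 it was 0.086. Over the 3 lines, 5 members were positive in each line (6.17%, against 20.2% of all genes) and 14 negative in each (17.3%, against 17.7%).

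**Figure D3:**
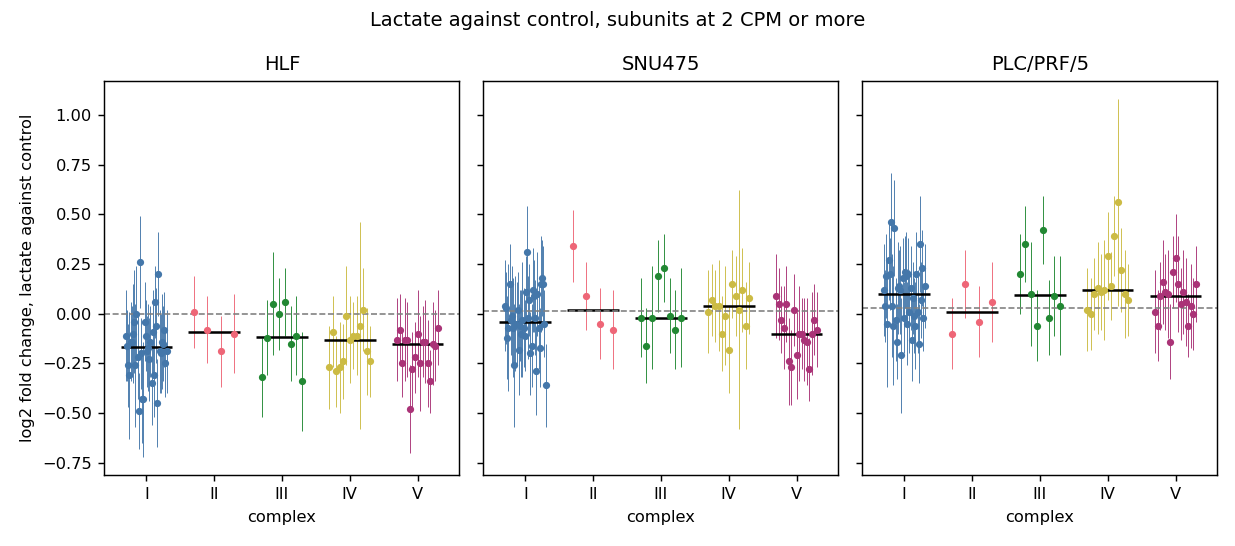
Log2 fold change of lactate against control in each line for the 78 members with a mean of at least 2 CPM, by complex, with standard errors from edgeR. Black lines are medians of a complex over the genes plotted and dashed lines the median of all genes tested. Points lie mostly below 0 in HLF and above it in PLC/PRF/5, and none passed the adjusted threshold.

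By complex, the members with the smallest p in each direction in HLF were as follows. In complex I, NDUFA9 had a log2 fold change of -0.49 ± 0.19 (adjusted p = 0.77) and NDUFB1 0.26 ± 0.23 (0.903). Scaled CPM of NDUFA9, an accessory subunit near the ubiquinone site, was 101 and 76.3 in HLF controls and 64.3 and 61.9 after lactate, without overlap. In complex II SDHC had -0.19 ± 0.18 and SDHA 0.01 ± 0.18. Complex III gave UQCR10 at -0.32 ± 0.20 and UQCRC2 at 0.06 ± 0.17. Complex IV gave COX5B at -0.29 ± 0.18 and COX7C at 0.02 ± 0.21, and complex V gave ATP5MC1 at -0.48 ± 0.22, with no positive member. Each of these had an adjusted p of 0.77 or above.

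In SNU475 the corresponding log2 fold changes were smaller than 0.4 in size. They were -0.36 ± 0.21 for NDUFV3 and 0.31 ± 0.23 for NDUFB6 in complex I, and 0.34 ± 0.18 for SDHA and -0.08 ± 0.20 for SDHD in complex II. SDHA had 167 and 130 CPM in controls and 186 and 191 CPM after lactate, which did not overlap but missed the threshold (adjusted p = 0.477). UQCRC2, a core protein of complex III, had 0.23 ± 0.17 and UQCR11 -0.16 ± 0.19. COX7A2L had 0.15 ± 0.17, COX7A2 -0.18 ± 0.22, ATP5F1A, the alpha subunit of the ATP synthase head, 0.09 ± 0.21, and ATP5PB, the peripheral stalk subunit b, -0.28 ± 0.16.

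In PLC/PRF/5 the log2 fold change of UQCRC2 was 0.42 ± 0.17 (unadjusted p = 0.0322 in the edgeR fit, adjusted p = 0.789). Its CPM was 58.4 and 70.3 in controls and 83.5 and 89.2 after lactate. COX7B had 0.39 ± 0.20, with 47.0 and 50.1 CPM in controls and 62.1 and 65.1 CPM after lactate. NDUFA3 had 0.46 ± 0.25 and NDUFS6 -0.15 ± 0.20 in complex I. SDHB had 0.15 ± 0.17, SDHA -0.10 ± 0.18 and UQCRC1 -0.06 ± 0.18. ATP5ME had 0.28 ± 0.22 and ATP5MC2 -0.14 ± 0.19, and COX5A was near 0 with an SE of 0.18.

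For the mean over the lines, UQCRC2 had 0.24 ± 0.10 (adjusted p = 0.275) and ATP5PB -0.22 ± 0.09 (adjusted p = 0.26), the members besides COX6B2 with an unadjusted p under 0.05. ATP5PB had 234 and 205 CPM in HLF controls and 167 and 181 after lactate, 192 and 207 in SNU475 controls and 158 and 171 after lactate, and 72.7 and 74.4 in PLC/PRF/5 controls and 71.7 and 69.2 after lactate. Its lactate libraries were below the controls in every line. The mean effect was -0.27 ± 0.12 for NDUFS3 and 0.17 ± 0.12 for NDUFS4 in complex I, 0.08 ± 0.10 for SDHA and -0.09 ± 0.10 for SDHC in complex II, and -0.11 ± 0.14 for UQCRQ in complex III. It was 0.12 ± 0.12 for COX7B, -0.08 ± 0.11 for COX6B1 and 0.01 ± 0.11 for ATP5F1E.

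COX6B2, the testis isoform of the complex IV subunit COX6B, had the largest log2 fold change with lactate among the members, but at very low counts. It had at most 6 counts in any control library, so it passed the filter on low counts only through lactate libraries, where it was high. Its fold changes and p-values are therefore no independent support for a lactate effect. Its counts were 6 and 1 in HLF controls and 49 and 24 after lactate, 2 and 0 in PLC/PRF/5 controls and 34 and 23 after lactate, and 6 and 0 in SNU475 controls and 1 and 39 after lactate. The groups did not overlap in HLF and PLC/PRF/5, and in SNU475 the lactate libraries lay on both sides of control library 1. The ratio of summed counts per scaled library size was 9.35 in HLF (95% exact binomial interval 4.32 to 24.1), 7.6 in SNU475 (3.2 to 21.9) and 23.7 in PLC/PRF/5 (6.25 to 200), covering counting error only. COX6B1, the common isoform, still supplied at least 99.5% of the pair's TPM in every library. The mean log2 fold change was 3.50 ± 0.88 (edgeR, adjusted p = 0.097), and the gene passed in DESeq2 (adjusted p = 0.0137) and with no filter on low counts (adjusted p = 2.58e-07). It passed as well without SNU475 lactate library 1 (adjusted p = 0.00643), while with the replicate number as a block the adjusted p was 0.0507. Without SNU475 lactate library 2 the mean fell to 2.07 (adjusted p = 0.349) and the SNU475 value turned to -1.37, so the SNU475 ratio rests on that library. Over the libraries left out in turn the mean ran from 2.07 to 5.09. In GENCODE 29 the gene overlaps ENSG00000267706 on the same strand, which had 3 counts in 1 PLC/PRF/5 lactate library and 0 in the other libraries.

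The untreated lines differed in many members. Counting both directions together, in no comparison was the share called far above that of all genes. In this fit most calls against SNU475 were in the lower direction, a split that depended on the scaling, as given below. Between PLC/PRF/5 and SNU475 edgeR called 35 of 81 members (43.2%, against 48.7% of all genes), 4 higher and 31 lower in PLC/PRF/5 (22.4% and 26.3% of all genes). Between HLF and SNU475 it called 33 (40.7%, against 39% of all genes), 4 higher and 29 lower in HLF (17.2% and 21.9% of all genes). Between PLC/PRF/5 and HLF it called 25 (30.9%, against 43% of all genes), 10 higher and 15 lower in PLC/PRF/5 (21.7% and 21.3% of all genes), a share below that of all genes. The members' median log2 difference was -0.44 for PLC/PRF/5 against SNU475 (all genes -0.03), -0.294 for HLF against SNU475 (all genes 0.0) and -0.061 for PLC/PRF/5 against HLF (all genes 0.0). Without HLF control library 1 the last 2 became -0.53 and 0.212, and without PLC/PRF/5 control library 1 the last was 0.009, so its direction turned. Without HLF control library 2 it was -0.173, and without PLC/PRF/5 control library 2 it was -0.106. Both PLC/PRF/5 controls lay above both HLF controls for 26 members (32.1%, against 37.7% of all genes) and below them for 25 (30.9%, against 38.1%). Against SNU475, PLC/PRF/5 lay above for 18 (22.2%, against 38.4% of all genes) and below for 51 (63.0%, against 39.5%). HLF lay above SNU475 for 11 (13.6%, against 34%) and below for 43 (53.1%, against 34.6%). These comparisons share control libraries and are not independent.

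The split into higher and lower depended on the scaling. With total counts and no scaling factors it was 9 higher and 17 lower for PLC/PRF/5 against SNU475, 6 and 26 for HLF against SNU475, and 17 and 10 for PLC/PRF/5 against HLF. With limma on log2(TPM + 1) it was 22 and 13, 8 and 22, and 27 and 6. The median of all genes moved too, to 0.236, 0.107 and 0.118 with total counts and to 0.30, 0.137 and 0.126 with TPM. Relative to that median, the members' median stayed lower in PLC/PRF/5 than in SNU475 with total counts (-0.399) and with TPM (-0.204), and lower in HLF than in SNU475 (-0.281 and -0.289). For PLC/PRF/5 against HLF it was 0.004 and 0.09. Without PLC/PRF/5 control library 1 the calls fell to 12 against HLF and 16 against SNU475, and without its library 2 to 16 and 22. Without SNU475 control library 2 they fell to 22 against PLC/PRF/5 and 21 against HLF, and without HLF control library 2 to 19 for HLF against SNU475. The calls that held in all alternatives run numbered 12 of 35, 15 of 33 and 8 of 25 in the order above.

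**Figure D4:**
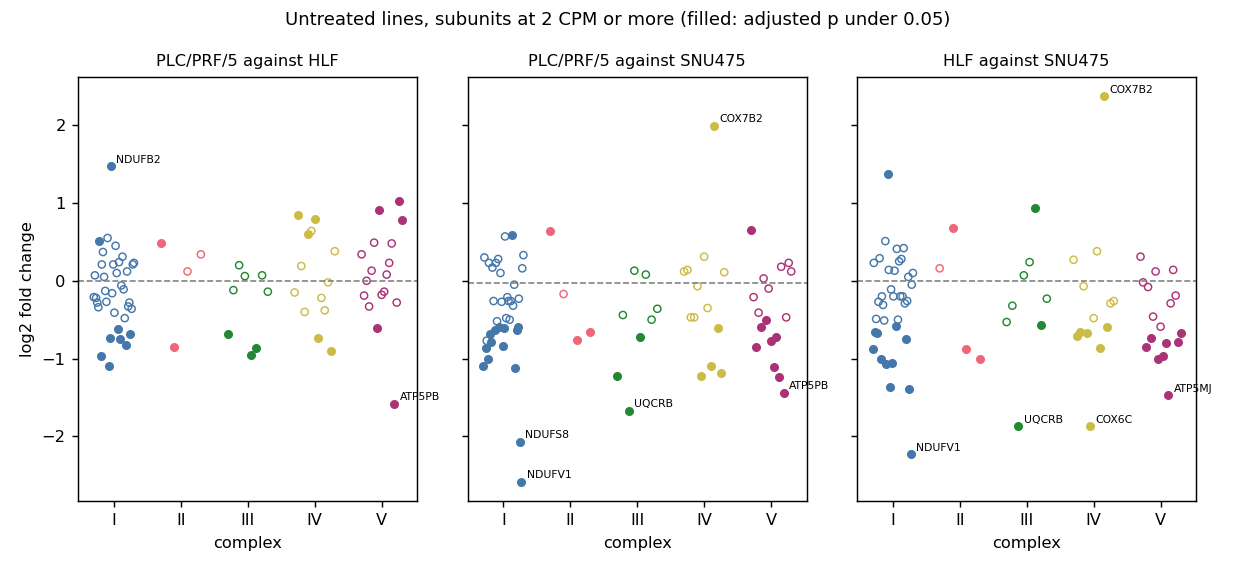
Log2 difference between untreated lines for the 78 members with a mean of at least 2 CPM, by complex; filled points passed an adjusted p of 0.05 and dashed lines give the median of all genes. Called members with differences over 1.4 in size are named. NDUFV1 is the lowest point in both comparisons with SNU475, at -2.58 and -2.23.

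In complex I, NDUFV1, the flavoprotein that takes electrons from NADH, had 514 and 486 CPM in SNU475 controls, 117 and 97.0 in HLF and 77.2 and 89.6 in PLC/PRF/5. SNU475 was higher than the other lines without overlap, by log2 differences of -2.58 ± 0.20 for PLC/PRF/5 against SNU475 (adjusted p = 2.24e-06) and -2.23 ± 0.20 for HLF against SNU475 (adjusted p = 9.96e-06). NDUFS8, an iron-sulphur core subunit, followed the same order with 295 and 235 CPM in SNU475, 106 and 96.2 in HLF and 58.3 and 68.2 in PLC/PRF/5. Its log2 differences were -2.07 ± 0.19 (adjusted p = 7.53e-06) and -1.39 ± 0.19 (adjusted p = 0.000179). After lactate SNU475 had 517 and 597 CPM of NDUFV1 and 313 and 287 CPM of NDUFS8.

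These 2 genes lie on chromosome 11 on the plus strand, NDUFV1 at 67605653 to 67612554 and NDUFS8 at 68030617 to 68036644 in GENCODE 29 (GRCh38). Neighbours here are tested protein-coding genes, members left out, whose span reaches within 500 kb of the member. Of the 24 neighbours of NDUFV1, edgeR called 24 lower in PLC/PRF/5 than in SNU475 (median log2 difference -2.49). Of all genes tested, coding or not, 26.3% were called lower. Called lower in HLF than in SNU475 were 23 of the 24 (median -1.93; 21.9% of all genes). For NDUFS8, whose window overlaps the first, all 11 neighbours were lower in both comparisons, with medians of -1.13 and -1.42. A range from 500 kb before to 1000 kb after the NDUFV1 start was chosen after the values were seen. Of the other tested protein-coding genes that start in it, 28 of 28 were called lower in PLC/PRF/5 (median -2.41) and 27 of 28 in HLF (median -1.87). The 71 such genes from 2500 to 500 kb before the NDUFV1 start had medians of -0.53 and 0.14, with 31 and 13 called lower. The 12 genes from 1000 to 2500 kb after it had medians of -1.22 and -1.81, with 6 and 8 called lower, so lower values were not confined to that range. DNA copy number was not measured, and its part in this pattern was not tested.

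**Figure D5:**
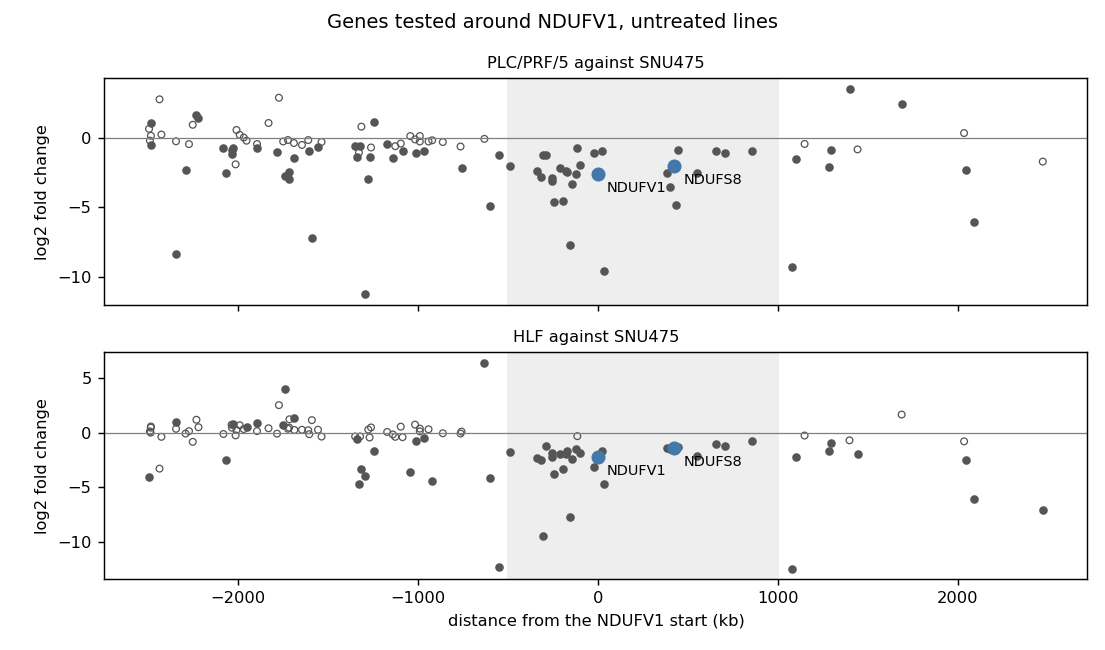
Log2 difference between untreated lines for the 113 tested protein-coding genes that start within 2500 kb of the NDUFV1 start, by distance in kb. Filled points passed an adjusted p of 0.05 and the shaded range runs from 500 kb before to 1000 kb after the start. Inside it the median is -2.41 for PLC/PRF/5 and -1.87 for HLF, each against SNU475.

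Neighbours of other members moved with them in some comparisons and not in others. NDUFB10, an accessory subunit of the membrane arm, had 144 and 126 CPM in HLF, 57.1 and 47.1 in SNU475 and 60.0 and 66.6 in PLC/PRF/5. It was highest in HLF, with a log2 difference of 1.37 ± 0.18 from SNU475 (adjusted p = 0.000138), where 27 of its 40 neighbours were called higher (median 1.04; 17.2% of all genes were called higher). PLC/PRF/5 against HLF gave -1.09 ± 0.18 for NDUFB10 (adjusted p = 0.000482), with 16 of 40 neighbours called lower (21.3% of all genes). NDUFB2 was lowest in HLF, at 46.6 and 31.5 CPM against 80.7 and 122 in SNU475 and 108 and 108 in PLC/PRF/5, a log2 difference of 1.47 ± 0.30 for PLC/PRF/5 against HLF (adjusted p = 0.00203). Of its 7 neighbours 6 were called higher in that comparison (21.7% of all genes). For HLF against SNU475, where NDUFB2 stood at -1.37, 1 neighbour was called lower and 2 higher (21.9% and 17.2% of all genes). For PLC/PRF/5 against SNU475 NDUFB2 stood at 0.1 while 6 neighbours were called higher (22.4% of all genes). Across the 70 members with at least 5 neighbours, the correlation of a member's difference with its neighbours' median was 0.34 (Pearson) and 0.56 (Spearman) for PLC/PRF/5 against HLF, 0.53 and 0.43 for PLC/PRF/5 against SNU475, and 0.34 and 0.49 for HLF against SNU475. These are correlations across genes that share libraries, and some windows overlap. They were not computed for other genes, so whether they are particular to the members was not tested. Elsewhere in complex I, NDUFS1, the largest core subunit, was 0.59 ± 0.18 higher on the log2 scale in PLC/PRF/5 than in SNU475 (adjusted p = 0.0178), a call lost without any 1 of 3 of the control libraries and with effective-length offsets.

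Complex II subunits did not move as a unit between lines. SDHA, the flavoprotein, had 239 and 225 CPM in PLC/PRF/5 controls, 178 and 155 in HLF and 167 and 130 in SNU475, so PLC/PRF/5 was highest without overlap. Its log2 difference was 0.64 ± 0.18 from SNU475 (adjusted p = 0.0106), lost without SNU475 control library 2 or PLC/PRF/5 control library 1. It was 0.48 ± 0.18 from HLF (adjusted p = 0.045), a call lost in 9 alternatives. SDHB, the iron-sulphur subunit, was highest in HLF at 111 and 101 CPM, against 70.6 and 62.6 in SNU475 and 55.8 and 62.4 in PLC/PRF/5. It differed by -0.85 ± 0.17 for PLC/PRF/5 against HLF (adjusted p = 0.00188; lost on log2(TPM + 1)) and 0.68 ± 0.17 for HLF against SNU475 (adjusted p = 0.0084; lost without HLF control library 1 or SNU475 control library 2, and with only the libraries compared). The membrane anchors SDHC and SDHD were highest in SNU475. SDHC had 180 and 148 CPM there and 79.8 to 98.8 CPM in the other untreated libraries. SDHD had 151 and 196 CPM there and 84.9 to 117 CPM elsewhere. HLF differed from SNU475 by -0.88 ± 0.18 for SDHC (adjusted p = 0.00244) and -1.0 ± 0.20 for SDHD (adjusted p = 0.00226). The SDHD call held in all alternatives run, and the SDHC call did not.

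In complex III, UQCRB, the ubiquinone-binding accessory subunit, had 220 and 331 CPM in SNU475 controls, 80.1 and 70.4 in HLF and 87.3 and 86.1 in PLC/PRF/5. The log2 difference from SNU475 was -1.67 ± 0.26 in PLC/PRF/5 (adjusted p = 0.000364) and -1.87 ± 0.27 in HLF (adjusted p = 0.00024). Of its 5 neighbours 3 and 4 were called lower in these comparisons (26.3% and 21.9% of all genes) and 0 higher in either. UQCRFS1, the Rieske iron-sulphur protein, was highest in HLF, at 255 and 225 CPM against 125 and 125 in SNU475 and 131 and 134 in PLC/PRF/5, with 0.94 ± 0.19 on the log2 scale from SNU475 (adjusted p = 0.00242). UQCRC2 was lowest in PLC/PRF/5, at 58.4 and 70.3 CPM against 137 and 112 in HLF, a log2 difference of -0.96 ± 0.18 (adjusted p = 0.00107).

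In complex IV, COX6C, a small membrane subunit, had 147 and 168 CPM in SNU475, 50.5 and 35.6 in HLF and 66.9 and 67.5 in PLC/PRF/5. HLF differed from SNU475 by -1.87 ± 0.25 (adjusted p = 0.000178) and PLC/PRF/5 by -1.23 ± 0.25 (adjusted p = 0.00189). Of the 6 neighbours of COX6C, 1 was called lower and 3 higher in PLC/PRF/5 against SNU475 (median 0.65; 26.3% and 22.4% of all genes). For HLF against SNU475, 2 were called lower and 0 higher (median -0.32; 21.9% and 17.2% of all genes). COX5A, a matrix-side subunit, was lowest in HLF at 89.2 and 71.9 CPM against 139 and 151 in PLC/PRF/5, a log2 difference of 0.85 ± 0.18 (adjusted p = 0.00297). COX8A was lowest in PLC/PRF/5 at 105 and 122 CPM, against 240 and 183 in HLF, with -0.90 ± 0.22 (adjusted p = 0.00704). That call was lost without HLF control library 1 or PLC/PRF/5 control library 1.

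In complex V, ATP5PB was lower in PLC/PRF/5, at 72.7 and 74.4 CPM, than in HLF (log2 difference -1.58 ± 0.16, adjusted p = 1.5e-05) and SNU475 (-1.44 ± 0.16, adjusted p = 3.08e-05). These calls held in all alternatives run. ATP5PF, another stalk subunit, was 1.02 ± 0.18 higher on the log2 scale in PLC/PRF/5 (98.0 and 101 CPM) than in HLF (55.5 and 42.7 CPM; adjusted p = 0.000881). ATP5MJ, a small membrane subunit, had 84.2 and 95 CPM in SNU475 and 36.2 and 28.5 in HLF, a log2 difference of -1.47 ± 0.22 (adjusted p = 0.000298). ATP5F1A was 0.65 ± 0.21 higher in PLC/PRF/5 than in SNU475 on the log2 scale (adjusted p = 0.0236), a call lost without SNU475 control library 2 or either PLC/PRF/5 control library, and with only the libraries compared. Of the 5 catalytic head genes, 3 were called between PLC/PRF/5 and SNU475, 2 between HLF and SNU475 and 0 between PLC/PRF/5 and HLF, where 48.7%, 39% and 43% of all genes were called.

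Genes that act with these subunits were taken from lists of assembly factors, electron carriers, regulators and the 13 mitochondrially encoded subunits. With lactate edgeR called none of them in a line or in the mean. At an unadjusted p under 0.05 in the mean effect there were 1 of 14 complex I, 1 of 4 complex II, 1 of 6 complex III, 4 of 21 complex IV and 2 of 4 complex V assembly factors. There were also 3 of 12 regulators, 0 of 5 genes in the electron carrier list and 2 of 13 mitochondrial genes, where 15.8% of all genes passed. The mitochondrial genes had a median log2 fold change in HLF of -0.735, against -0.292 for SNU475 and -0.195 for PLC/PRF/5, and 13, 8 and 11 of the 13 were negative. The HLF controls differed most in these genes (182637 and 77033 TPM summed).

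Between untreated lines, the shares of all genes called were 43%, 48.7% and 39% for PLC/PRF/5 against HLF, PLC/PRF/5 against SNU475 and HLF against SNU475. By edgeR, the calls took in 5 of 14 complex I assembly factors in PLC/PRF/5 against HLF and 5 of 14 against SNU475 (35.7% each, below all genes). NDUFAF2 was lower in PLC/PRF/5 in both (log2 differences -1.27 ± 0.23 and -1.11 ± 0.23), and NUBPL was 1.41 ± 0.24 higher than in HLF. Of 21 complex IV assembly factors, 6, 8 and 4 (28.6%, 38.1% and 19%) were called in that order, below the shares of all genes. COX11, a copper chaperone, was 1.52 ± 0.19 higher and COA6 was at -1.55 ± 0.24 in PLC/PRF/5 against SNU475. TMEM70, an ATP synthase assembly factor, was 1.25 ± 0.22 higher in PLC/PRF/5 than in HLF, and HLF stood at -1.53 ± 0.22 against SNU475. Among 12 regulators 4, 5 and 4 (33.3%, 41.7% and 33.3%) were called in the same order of comparisons, also below all genes. PPARGC1A, the coactivator PGC-1 alpha, had 1 and 0 counts in HLF controls, 163 and 64 in SNU475 and 417 and 642 in PLC/PRF/5. The lines did not overlap for this gene, and it was 2.11 ± 0.52 higher on the log2 scale in PLC/PRF/5 than in SNU475 (adjusted p = 0.00591). GABPA, the DNA-binding part of GABP, was 1.06 ± 0.28 higher in PLC/PRF/5 than in HLF (adjusted p = 0.0101). Of the mitochondrial genes only MT-CO1 and MT-ND4L were called, both lower in PLC/PRF/5 than in SNU475 (-1.37 ± 0.49 and -1.16 ± 0.43).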

How the data were processed

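RNA sequencing covered 12 libraries of 3 lines, in 6 groups of 2. Each deposited table lists expected counts, estimated by RSEM and not whole numbers, per the file headers. It also lists TPM, which the authors deposited beside them, per the file headers. FastQC, STAR, RSEM and DESeq2 are listed, per the submitters' processing notes, together with mouse builds (GRCm38, mm10). Human identifiers stood in each of the 62757 rows and mouse identifiers in 0, so human genes were analysed; which human build was used is not given in the sources used here.

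Expected counts were rounded, and the counts of 47 pseudoautosomal Y rows were merged with the X rows, leaving 62710 genes. The edgeR 4.0.16 quasi-likelihood test (R 4.3.3, robust) was fitted to the 18355 genes passing filterByExpr, over 12 libraries as 6 groups with TMM factors from 0.794 to 1.17 and 6 residual degrees of freedom. The biological coefficient of variation was 0.26. P-values were adjusted over all genes tested (Benjamini-Hochberg), with calls at 0.05. Each log2 value carries its standard error. TPM was used for levels and, with a pseudocount of 1, in limma 3.58.1 as an alternative. The test was also run on simulated counts with 1 coefficient of variation, 0.26, for all genes and groups. The spread in the data differs between groups, so that run is not used as support here. Replicate numbers come from the labels, and same-numbered libraries deviated together (correlation 0.101 for HLF, 0.446 for SNU475, 0.132 for PLC/PRF/5), which passes the limit of 0.1 for pairing. Over the members alone the correlations were 0.55, -0.0426 and -0.293, and the PLC/PRF/5 libraries numbered 2 carry number 3 in their deposited names, so the pairing there is uncertain. The printed fit has no replicate term, and the block is an alternative.

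Members and gene lists were chosen with earlier results of these data known. Named genes are the isoform families and complex II, per complex the smallest p in each direction for lactate, the largest called difference in each direction between lines and the highest and lowest level, all at a mean of at least 2 CPM, the 3 smallest interaction p-values, and up to 3 called genes per list; other names were chosen after their values were seen. Library kits marked strand, but the strand setting used in counting is not given in the sources used here, so reads of overlapping genes may be shared. Dropped pseudogene and read-through symbols held 0.106 to 0.354% of the members' counts.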

Additional observations from a re-analysis of the deposited data

How the results depend on the processing

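Alternatives were other scaling (relative log expression, no mitochondrially encoded genes), DESeq2, limma-voom, no filter on low counts, effective-length offsets, the replicate number as a block, only the libraries compared, each library left out, and both SNU475 libraries numbered 2 left out. Total counts without scaling factors and limma on log2(TPM + 1) were chosen after seeing the data. For lactate, 1 member, COX6B2, was called in PLC/PRF/5 with no filter and with only the libraries compared, and in the mean effect with DESeq2 and with no filter; 0 were called in the other settings that keep all libraries. Leaving out 1 library gave 0 to 1 members in SNU475 and in the mean effect, and 0 in HLF, in PLC/PRF/5 and in the interaction. Between untreated lines leaving out 1 library gave 12 to 28 calls for PLC/PRF/5 against HLF, 16 to 41 for PLC/PRF/5 against SNU475 and 19 to 37 for HLF against SNU475; the other settings stayed within 1.5 times. With the replicate block the counts were 0 for each lactate comparison and 29, 46 and 39 between lines, and no called member was lost.

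Most reversals concerned uncalled lactate differences near 0. The others were COX6B2 in SNU475, at 2.94 in the printed fit, and 4 called differences between untreated lines. With effective-length offsets HLF values were -0.087 for SDHA, -0.11 for UQCRC2 and -0.002 for COX7C, and PLC/PRF/5 gave 0.002 for COX5A. On log2(TPM + 1) SDHC was 0.006 in HLF and 0.006 in the mean, COX6B1 0.001 in the mean and COX5A 0.054 in PLC/PRF/5. Total counts gave 0.005 for UQCRC1 and 0.06 for COX5A in PLC/PRF/5. Without both SNU475 libraries numbered 2, SNU475 gave -0.077 for COX7A2L, -0.034 for ATP5F1A and -2.34 for COX6B2, and the mean of ATP5F1E was -0.043. Leaving out 1 library gave -0.087 to 0.14 for SDHA, -0.33 to 0.002 for SDHC, -0.074 to 0.24 for UQCRC2 and -0.14 to 0.22 for COX7C in HLF. In SNU475 it gave -0.32 to 0.13 for SDHD, -0.044 to 0.32 for COX7A2L, -0.41 to 0.087 for COX7A2, -0.16 to 0.37 for ATP5F1A and -1.37 to 7.71 for COX6B2. In PLC/PRF/5 it gave -0.16 to 0.037 for UQCRC1, -0.062 to 0.056 for COX5A and -0.28 to 0.01 for ATP5MC2, and the mean of ATP5F1E ran from -0.057 to 0.093. Between PLC/PRF/5 and SNU475, log2(TPM + 1) turned 4 called members, ATP5MC2 (0.042), NDUFA3 (0.12), NDUFB5 (0.042) and NDUFS5 (0.022). The cause of these changes was not tested.

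With 2 libraries per group, 6 residual degrees of freedom and a biological coefficient of variation of 0.26, standard errors of member log2 values were mostly near 0.2, and lactate differences of -0.49 (NDUFA9) and -0.48 (ATP5MC1) in HLF did not pass, so differences of that size could be missed within a line.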
